A study of Mus musculus with 4 samples.

Results

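The 10 genes described here, Trp53, Mdm2, Cdkn1a, Cdkn2a, Cdkn2b, Ccng1, Bax, Bbc3, Gdf15 and Sesn2, belong to the p53 pathway and to the cell cycle arrest programme of senescent cells. They were taken by name from the RefSeq genes of the GRCm38.p6 assembly, are all protein-coding, and are 10 of the 21440 protein-coding genes that could be placed with a strand. Open regions were assigned to them in a deposited list of 32011 distinct ATAC-seq regions. A region counted as lying at the 5′ end when its midpoint was within 1 kb of the outermost 5′ end of the gene, as lying in the gene when its midpoint was inside it beyond that distance, and as nearest when it was over 1 kb from every protein-coding 5′ end and the gene's 5′ end was the closest one. The 10 genes held 33 regions in these classes, of which 9 lay at a 5′ end and 24 were nearest regions, 4 of the latter inside a gene.

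ATAC-seq records where the Tn5 transposase can cut chromatin, so that a region in the list is a stretch of open DNA. The list came from mouse salivary gland organoids (mSGOs), grown in Matrigel from submandibular gland cells of female C57BL/6 mice. The medium held Wnt3a- and R-spondin1-conditioned media, dexamethasone, insulin, the supplement N2, the growth factors FGF2 and EGF, and the ROCK inhibitor Y27632. There were 4 samples, 2 of passage 1 and 2 of passage 2. The labels give the mice of each passage an age of 12 weeks for 1 sample and of 3 months for the other. These labels differ in unit and were not treated as different ages. All 4 samples were non-irradiated and no modified allele was named, so the values are a baseline without damage from radiation. The list is a single one for all samples, without separate values for any sample. It was assumed to be the consensus file that the methods describe, although its counts of lines (69545) and of distinct regions both differ from the size given there for that file. Spread between samples, depth per sample and differences between passages or age labels could therefore not be measured, and no test was run. Every value below is 1 value for the list, with no SD. The samples were bulk organoids, so a region open in more cells and one more open in each cell cannot be told apart.

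The gland label was compared with marker genes. A region lay at the 5′ end of 5 of 6 epithelial markers (Krt5, Krt14, Krt8, Epcam and Cdh1, but not Krt18). None of 4 acinar markers (Aqp5, Bpifa2, Prol1 and Bhlha15), of 4 endothelial markers (Pecam1, Tek, Kdr and Cdh5) or of 4 fibroblast markers (Dcn, Col1a1, Pdgfra and Col1a2) had one. Of 4 immune markers (Ptprc, Lyz2, Cd68 and Cd3e), Cd68 had a region. Away from the 5′ ends, all 4 endothelial markers had nearest regions, 13 in all, and Pecam1 and Tek had regions inside the gene. Over all protein-coding genes, 40.3% had a nearest region and 25.6% a region inside the gene. The fibroblast markers Dcn, Col1a1 and Pdgfra had 7 nearest regions in all, 5 of them at Dcn, and Pdgfra had 1 inside the gene. Ptprc and the acinar marker Bhlha15 had 1 nearest region each. Of the 6 epithelial markers, 5 had 15 nearest regions in all, and Cdh1 had 7 regions inside the gene. The fold is the signal at the strongest summit of a region over its local background, as the authors' peak caller gave it. The epithelial folds were 2.95 for Krt5, 5.43 for Krt14, 5.96 for Krt8, 6.64 for Epcam and 7.77 for Cdh1, and that of Cd68 was 4.58. All 6 were below the median of 7.90 over regions at protein-coding 5′ ends, and the immune marker stood above Krt5, so the folds did not separate the epithelial markers from it.

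p53, the product of Trp53, is a transcription factor that is kept low by the ubiquitin ligase Mdm2 and accumulates when DNA is damaged. It then switches on genes that stop the cell cycle, trigger apoptosis or limit stress, among them Mdm2 itself, which closes a feedback loop. Senescence is a lasting arrest held by p53 through the CDK inhibitor p21 (Cdkn1a) and by RB through p16Ink4a, a product of Cdkn2a, and p15Ink4b (Cdkn2b), while the other product of Cdkn2a, Arf, binds Mdm2 and releases p53. In irradiated tissue these are the genes by which damage and lasting arrest are usually followed.

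Open chromatin at the 5′ end was listed for 7 of the 10 genes, namely Trp53, Mdm2, Cdkn2a, Cdkn2b, Ccng1, Bbc3 and Sesn2. Over all 21440 protein-coding genes the same share was 38.3%. Cdkn1a, Bax and Gdf15 had none. The strongest region at the 5′ end had a median fold of 9.26 over the 7 genes, against 8.41 over all protein-coding genes with such a region. Cdkn1a and Bbc3 each held 2 further regions inside the gene, where 25.6% of protein-coding genes had at least 1. Bax and Gdf15 had no region in any of the 3 classes, as had 37.1% of protein-coding genes. Nearest regions were assigned to 7 genes, 13 of the 24 falling to Cdkn2b, and 40.3% of protein-coding genes had at least 1. The distance of 1 kb placed Bbc3 (1000 bp) and Trp53 (976 bp) just inside and left Cdkn1a (2722 bp) as the next one outside. Within 500 bp the count was 5 of 10, without Bbc3 and Trp53 (35.4% of protein-coding genes), and within 2 kb it was 7 of 10 (41.4%).

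**Figure D1:**
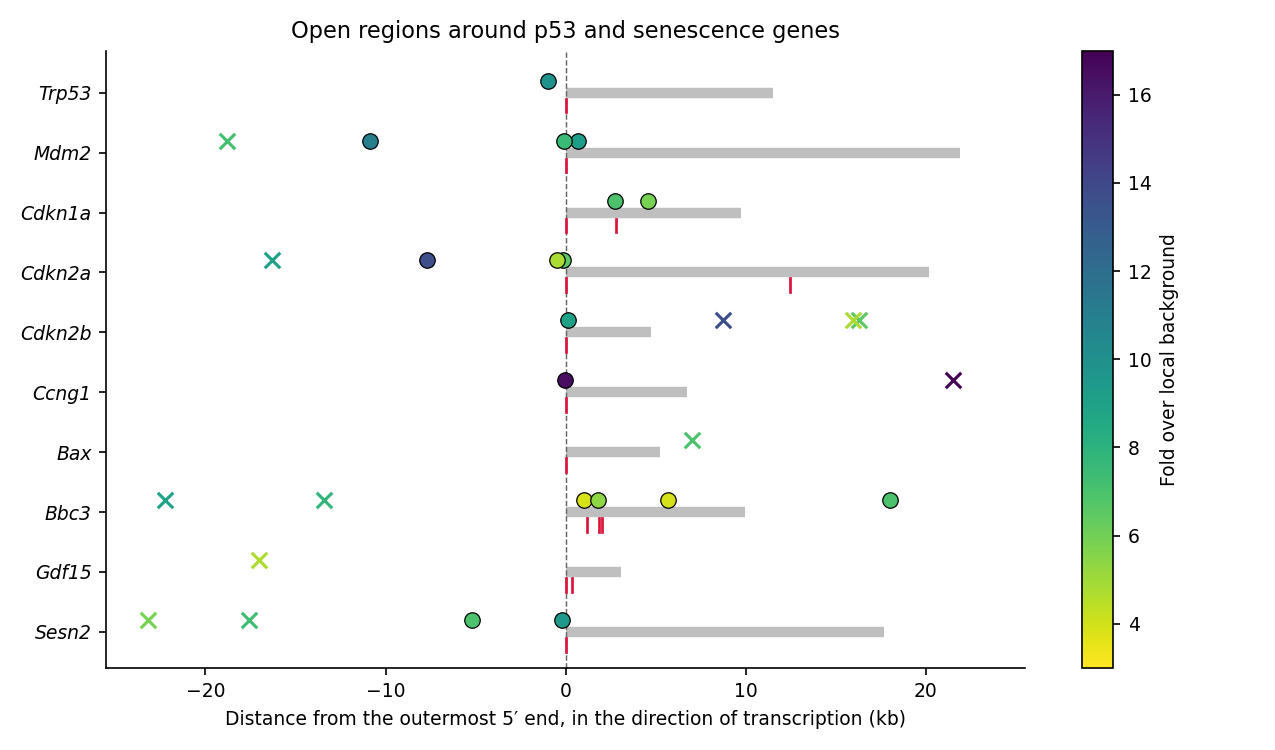
Open regions within 25 kb of the outermost 5′ end (dashed line) of the 10 genes, with distance in kb in the direction of transcription, gene bodies as grey bars, annotated starts as red ticks and the colour giving the fold. Circles are regions assigned to the gene and crosses are regions assigned to another gene: Bax and Gdf15 show no circle, and the first circle of Cdkn1a lies 2.72 kb inside the gene.

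The outermost end of a gene is not always where transcription begins. RefSeq promoter sequences of GRCm38.p6 matched all 10 genes and gave 15 annotated starts, 4 of the genes having several. Of these 15 starts, 8 lay inside a region, against 34.5% of 21263 starts of protein-coding genes. Each of 7 genes had at least 1 such start, and these were not the 7 genes above: Cdkn1a had one and Trp53 did not. In Cdkn1a, Cdkn2a and Bbc3 some starts lay in a region and others did not, as in 31.1% of 2761 protein-coding genes with several starts.

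**Figure D2:**
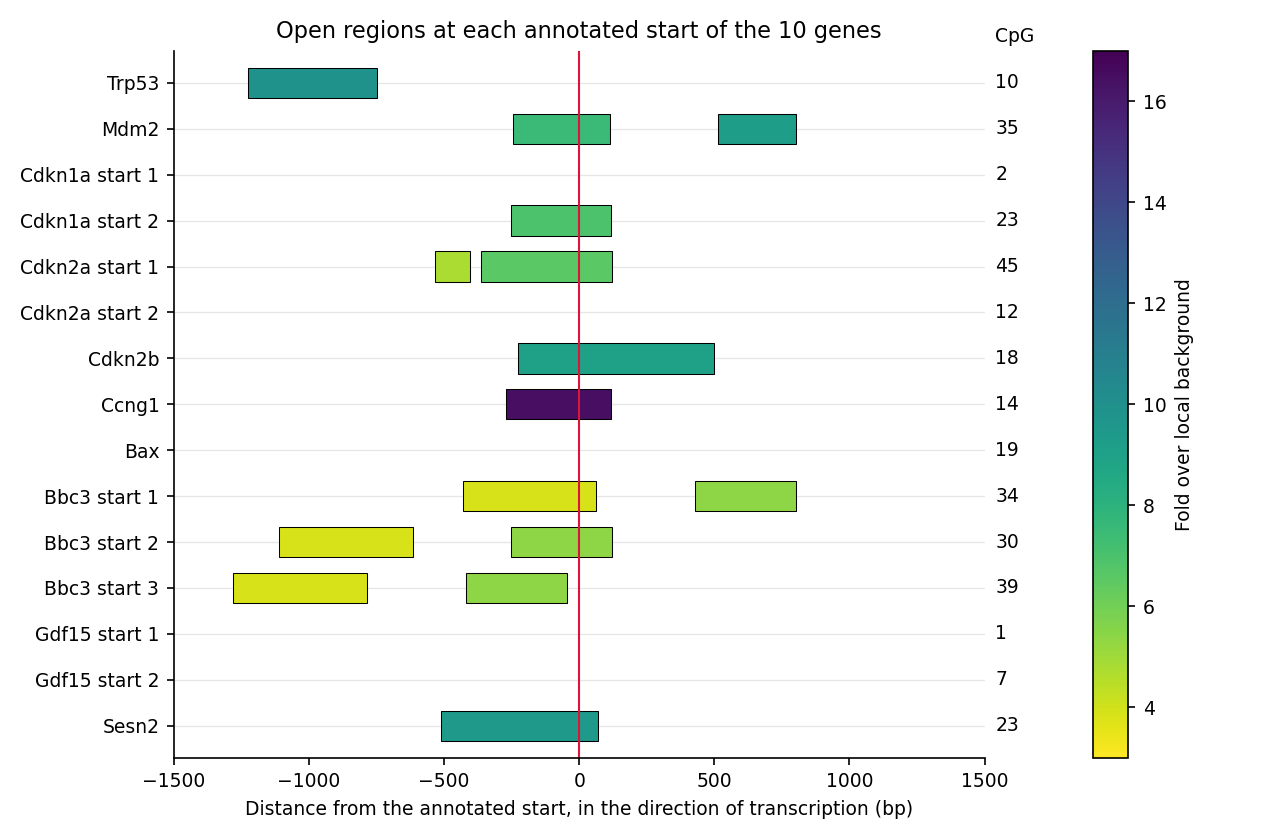
Open regions (boxes, coloured by fold) within 1500 bp of each of the 15 annotated starts (red line), with distance in bp in the direction of transcription and, at the right, the number of CpG dinucleotides in the 300 bases around the start. A box crosses the red line at 8 starts, including the second start of Cdkn1a and the first of Cdkn2a, and both starts of Gdf15 are empty.

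Sequences of the promoters show what these starts have in common and where they differ. Each runs 5′ to 3′ from 250 bases before to 50 bases after an annotated start, taken from RefSeq for GRCm38.p6. The first pair are the outer start of Cdkn1a (chr17:29090729-29091028, plus strand), outside any region, and the start of Ccng1 (chr11:40755237-40755536, minus strand), inside the strongest 5′ end region of the 10 genes. They are shown because they were the only ones of the 15 windows with a p53 response element of 2 adjoining units of 10 bases when 1 mismatch was allowed over its 20 bases. Capitals mark this element.
Cdkn1a outer start: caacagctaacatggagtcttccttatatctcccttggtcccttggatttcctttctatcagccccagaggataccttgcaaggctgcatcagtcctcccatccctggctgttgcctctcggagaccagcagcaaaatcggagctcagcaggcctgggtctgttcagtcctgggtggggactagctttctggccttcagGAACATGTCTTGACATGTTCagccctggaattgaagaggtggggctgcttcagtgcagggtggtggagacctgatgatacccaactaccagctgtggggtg
Ccng1: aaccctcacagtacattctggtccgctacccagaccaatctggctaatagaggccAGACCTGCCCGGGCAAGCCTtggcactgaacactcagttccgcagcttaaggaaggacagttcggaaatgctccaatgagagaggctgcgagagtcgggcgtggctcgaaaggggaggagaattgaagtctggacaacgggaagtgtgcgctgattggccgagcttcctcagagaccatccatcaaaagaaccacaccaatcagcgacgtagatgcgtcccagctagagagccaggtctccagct
The element ran from 51 to 32 bases before the start in Cdkn1a and from 195 to 176 bases before it in Ccng1, each with 1 mismatch. The search covered both strands and was chosen after the data were seen. It found such an element in 14 of 21263 promoter windows (0.0658%). Of these 14, 4 were at starts inside a region, those of Ccng1, Gtse1, Mthfd1 and Rps27l. A match is a description of letters and not a site shown to be bound.

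The next sequences are the inner start of Cdkn1a (chr17:29093519-29093818, plus strand), the upstream start of Cdkn2a from which Arf is read (chr4:89294570-89294869, minus strand), and the downstream start of Cdkn2a on the side of p16Ink4a (chr4:89282143-89282442, minus strand). With them stand the start of Bax (chr7:45466849-45467148, minus strand) and the outer start of Gdf15 (chr8:70632407-70632706, minus strand). They are shown because starts inside and outside regions differed in CpG over all genes, and capitals mark each CpG.
Cdkn1a inner start: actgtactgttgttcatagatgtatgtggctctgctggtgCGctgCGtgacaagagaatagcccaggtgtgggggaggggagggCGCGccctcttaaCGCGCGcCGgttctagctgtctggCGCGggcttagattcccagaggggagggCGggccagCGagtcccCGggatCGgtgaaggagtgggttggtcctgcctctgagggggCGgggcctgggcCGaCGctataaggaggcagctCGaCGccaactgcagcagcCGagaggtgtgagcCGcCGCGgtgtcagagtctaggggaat
Cdkn2a upstream start: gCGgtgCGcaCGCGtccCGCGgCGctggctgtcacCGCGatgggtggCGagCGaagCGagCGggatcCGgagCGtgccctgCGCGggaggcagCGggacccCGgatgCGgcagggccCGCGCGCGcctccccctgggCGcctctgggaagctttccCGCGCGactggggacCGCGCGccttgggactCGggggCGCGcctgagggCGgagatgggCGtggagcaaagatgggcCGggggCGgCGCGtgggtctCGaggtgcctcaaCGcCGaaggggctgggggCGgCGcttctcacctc
Cdkn2a downstream start: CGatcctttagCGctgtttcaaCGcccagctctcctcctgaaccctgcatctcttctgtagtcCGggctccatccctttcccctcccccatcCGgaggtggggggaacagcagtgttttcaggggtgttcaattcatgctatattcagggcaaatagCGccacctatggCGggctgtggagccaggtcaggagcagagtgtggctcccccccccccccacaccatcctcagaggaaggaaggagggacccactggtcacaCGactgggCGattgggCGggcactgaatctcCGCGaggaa
Bax: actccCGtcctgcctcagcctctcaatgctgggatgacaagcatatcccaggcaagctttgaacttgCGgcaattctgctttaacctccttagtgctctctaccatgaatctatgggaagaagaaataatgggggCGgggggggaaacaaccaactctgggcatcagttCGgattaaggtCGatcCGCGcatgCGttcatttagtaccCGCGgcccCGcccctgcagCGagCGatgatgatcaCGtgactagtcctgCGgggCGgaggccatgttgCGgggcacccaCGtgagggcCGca
Gdf15 outer start: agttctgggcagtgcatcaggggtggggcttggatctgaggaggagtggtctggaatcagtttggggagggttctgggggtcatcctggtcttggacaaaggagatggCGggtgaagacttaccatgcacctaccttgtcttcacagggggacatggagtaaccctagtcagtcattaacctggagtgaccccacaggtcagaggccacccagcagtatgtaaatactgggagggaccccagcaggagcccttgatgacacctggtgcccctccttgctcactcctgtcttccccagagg
Only the first pair of these windows lay in a region. The inner start of Cdkn1a had 23 CpG and the upstream start of Cdkn2a had 45. The downstream start of Cdkn2a had 12 CpG, Bax had 19 and the outer start of Gdf15 had 1. Bax therefore had more CpG than Ccng1, with 14, although it lay in no region.

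Over the 15 starts, the 8 in a region had a median of 26.5 CpG (range 14 to 45) and the 7 outside a median of 10 (range 1 to 39), so the ranges overlapped. Over all protein-coding genes the medians were 22 CpG at starts in a region and 6 at the others. CpG was also taken as the ratio of the observed number to that given by the C and G content. Of all starts with a ratio under 0.2, 3.02% lay in a region, and of those from 0.8 to 1.0, 63.5% did. The outer starts of Gdf15 (ratio 0.0418) and Cdkn1a (0.0892) fell in the first of these bands. Bax, with a ratio of 0.771, fell in the band from 0.6 to 0.8, where 54.1% of starts were in a region. Among short promoter motifs searched on both strands, the GC box GGGCGG was in 10 of the 15 windows and in 46.2% of all windows, and the CCAAT box CCAAT was in 7 and in 38.2%. The E-box CACGTG was in 4 (7.84% of all windows) and the TATA box TATAAA in 1 (12.6%). That match was in the Trp53 window, on the opposite strand and near its far upstream end, so not just before the start. None of these 4 motifs contains another.

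Trp53 lies on the plus strand of chromosome 11 (chr11:69580348-69591873) and had 1 region at its 5′ end, chr11:69579133-69579612. The region was 480 bp long, with a fold of 9.92, at percentile 70.4 of the 8178 regions at protein-coding 5′ ends. Its IDR score was 1000, the highest in the list on this scale of reproducibility. That score was shared by 57.2% of the regions at protein-coding 5′ ends and by 45.1% of all distinct regions. The region did not cover the start of Trp53: its near edge was 736 bp upstream and its midpoint 976 bp upstream. Wrap53, a gene on the opposite strand whose 5′ end is 98 bp from that of Trp53, has a further annotated start at chr11:69579249, and this one lay inside the region. The outermost start of Wrap53 was not in a region either, so no region covered the shared stretch between both genes.

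Mdm2, the main negative regulator of p53, lies on the minus strand of chromosome 10 and had 2 regions at its 5′ end, where 4.92% of protein-coding genes had 2 or more. The first, chr10:117710643-117711004, covered the annotated start with a fold of 7.54. The other, chr10:117709954-117710243, was stronger, with a fold of 9.26, and its midpoint lay 660 bp inside the gene. The internal promoter of Mdm2 that answers to p53 is known to lie downstream of the first exon, but the promoter sequences used here held a single start for the gene, at the upstream region. A nearest region, chr10:117721513-117721770, lay 10.9 kb upstream with a fold of 11.0. All 3 regions had an IDR score of 1000, as had 45.1% of all distinct regions, and the one farthest from the gene was the strongest.

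Cdkn1a encodes p21, the CDK inhibitor through which p53 stops the cycle in G1. It lies on the plus strand of chromosome 17 and its outer start, the one with the p53 element, had 0 of its 300 window bases in a region. Its inner start, 2.79 kb downstream, had all 300 bases in the region chr17:29093518-29093885, which had a fold of 6.97 and an IDR score of 1000. A further region in the gene, chr17:29095365-29095719, had a fold of 5.85 and an IDR score of 912. With these 2 regions Cdkn1a was at percentile 99 among the 500 genes nearest to it in length, and 1 of them, at the inner start, was among the 16006 regions with the lowest q-values. Open chromatin in the list was thus at the inner and not at the outer start.

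Ccng1 encodes cyclin G1, an early p53 target that acts on the Mdm2 loop. Its region chr11:40755167-40755558, 392 bp long and covering the start, had a fold of 16.5, at percentile 97.2 of regions at 5′ ends and above every other region of the 10 genes. The whole promoter window, the p53 element included, lay inside it. The window held 4 CCAAT boxes and no GC box. One nearest region, chr11:40790404-40790648, lay 35.2 kb upstream with a fold of 10.6.

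**Figure D3:**
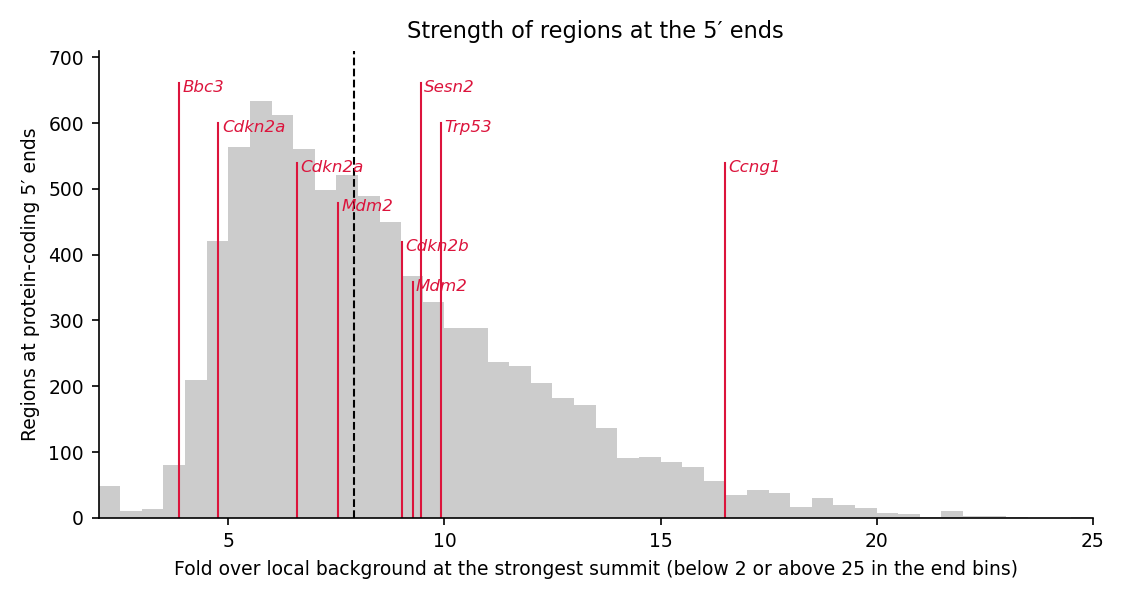
Number of regions at protein-coding 5′ ends by fold over local background (grey bars, 8178 regions, dashed line at their median of 7.90), with red lines at the 9 regions of the member genes. Ccng1 stands at 16.5 in the upper tail, Bbc3 at 3.86 in the lower tail, and the other 7 regions between 4.77 and 9.92.

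Cdkn2a and Cdkn2b lie side by side on the minus strand of chromosome 4. At the upstream start of Cdkn2a, from which Arf is transcribed, the region chr4:89294499-89294981 covered the whole window with a fold of 6.59 and an IDR score of 734. A short region of 132 bp, chr4:89295022-89295153, stood 468 bp upstream with a fold of 4.77 and an IDR score of 546, close to the lowest score of 540 in the list. Its midpoint was 93 bp from the start of Gm12610, a long noncoding RNA gene on the opposite strand. The downstream start of Cdkn2a, 12.4 kb into the gene, lay in no region, and the nearest midpoint was 12.5 kb away. The CpG-rich start of Cdkn2a was therefore in the list and the start on the side of p16Ink4a was not. Neither 5′ end region of Cdkn2a was among the 16006 regions with the lowest q-values or among those with an IDR score of 1000.

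At Cdkn2b, the region chr4:89310532-89311258 covered the start, was 727 bp long with 4 summits, and had a fold of 9.01 and an IDR score of 1000. Cdkn2b, which encodes p15Ink4b, also had 13 nearest regions, at percentile 99.2 among the 500 genes with the most similar stretch of sequence, and against a mean of 1.11 and a median of 0 per protein-coding gene. All 13 lay upstream, between 40.7 and 168 kb from the 5′ end (median 82.5 kb), with folds of 5.43 to 12.1 (median 7.52). Of the 13, 5 had an IDR score of 1000, as had 40.9% of all regions over 1 kb from protein-coding 5′ ends. All 13 also lay inside the gene body of Gm12610, which spans 223.4 kb. Nearness to a 5′ end does not show which gene a region acts on. With genes of every type as candidates, 4 of these 13 stayed with Cdkn2b.

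Cdkn2a had 3 nearest regions. The strongest, chr4:89302137-89302508, lay between the 5′ ends of both genes, 7.70 kb upstream of the outer start of Cdkn2a, with a fold of 13.7, above both promoters of the locus. It was closer to the start of Gm12610 than to that of Cdkn2a, and with genes of every type as candidates 1 of the 3 stayed with Cdkn2a. The others, chr4:89257677-89258090 with a fold of 7.03 and chr4:89234702-89235602 with a fold of 10.5, lay 36.7 and 59.5 kb downstream of that start, beyond the end of the gene.

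**Figure D4:**
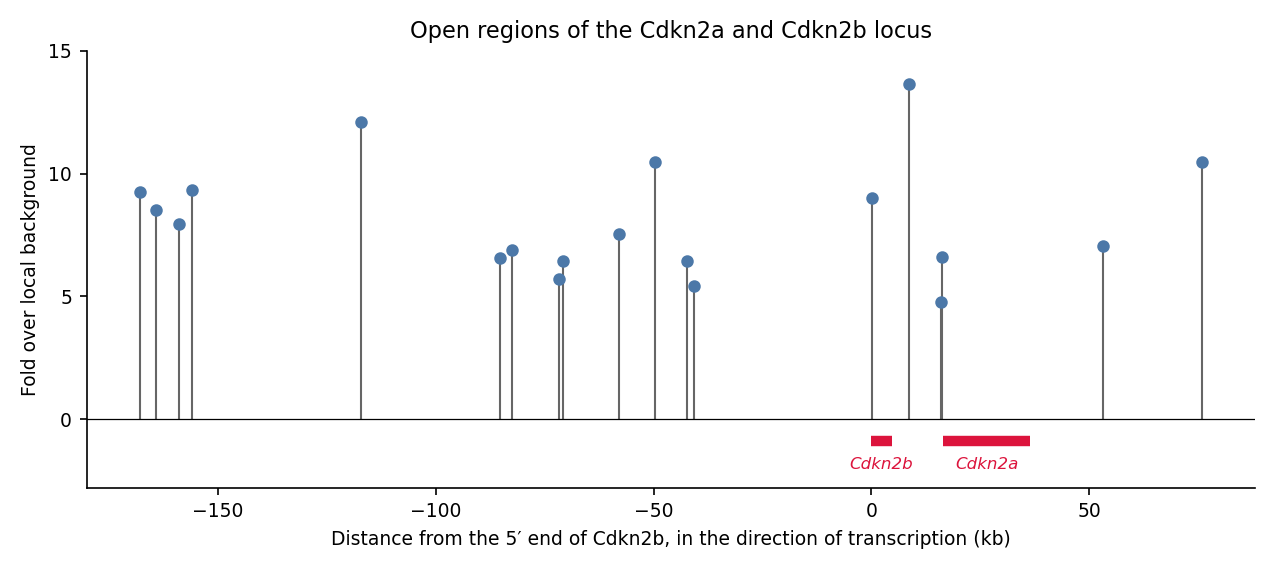
Fold over local background (vertical axis) of each open region against its distance in kb from the 5′ end of Cdkn2b, in the direction of transcription, with both gene bodies as red bars. The tallest line, at 13.7, stands between the genes, 13 regions stand upstream of Cdkn2b from 40.7 to 168 kb, and none stands over the body of Cdkn2a beyond its 5′ end.

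Bax and Bbc3 encode death effectors of the BCL2 family, Bbc3 being the BH3-only protein Puma. Bbc3 lies on the plus strand of chromosome 7 and had the weakest 5′ end region of the 7 genes, chr7:16309151-16309645, with a fold of 3.86, at percentile 1.36, and an IDR score of 583. This region covered the first of 3 annotated starts of Bbc3, 1185 bp inside the outermost end. The region chr7:16310010-16310384 covered the second start with a fold of 5.41, and the third start, 2.03 kb inside, lay outside both. A region further inside the gene, chr7:16313952-16314221, had a fold of 3.92, and a nearest region, chr7:16326258-16326529, lay 18.0 kb downstream of the 5′ end with a fold of 6.98. Bbc3 thus had several weak regions along the gene, at percentile 99.1 of genes of similar length for those inside it. Among the 16006 regions with the lowest q-values, Bbc3 kept none of its regions inside the gene or nearest to it, and none at its 5′ end.

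Bax, which permeabilizes the outer mitochondrial membrane, had no region. The nearest midpoint was 6.99 kb from its 5′ end, in the region chr7:45459772-45460055 at the start of the neighbouring gene Ftl1, the ferritin light chain, with a fold of 7.01. The Bax window had 3 GC boxes and 2 E-boxes. A gene without a region in this list had no peak that passed the authors' calling, which does not show that its promoter was closed.

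Sesn2 and Gdf15 are stress genes: Sesn2 encodes sestrin 2, which restrains mTORC1 in stressed cells, and Gdf15 a secreted cytokine of the TGF-β superfamily. In Sesn2, on the minus strand of chromosome 4, the region chr4:132510385-132510967 covered the start with a length of 583 bp, a fold of 9.45 and an IDR score of 1000. A nearest region, chr4:132515491-132515819, lay 5.20 kb upstream with a fold of 6.96. Gdf15 had no region, and the nearest midpoint was 17035 bp from its 5′ end. The Gdf15 start is 93 bp from that of Gm34154, a long noncoding RNA gene on the opposite strand, which lay in no region either. Sesn2 thus had an open start and Gdf15 no region near it.

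The other genes of the pathway were taken from 7 lists of 86 genes without the 10. A region lay at the 5′ end of 56 of them (65.1%, against 38.3% of protein-coding genes), with a median fold of 8.53. The secreted factors of senescent cells, with 7 of 18, were near the background share, and the 6 other lists ranged from 0 of 2 to 12 of 14. Of the 86 genes, 5 (5.81%) had no region in any class, against 37.1% of protein-coding genes: Bmi1, Tnfrsf10b, Rbl1, Cxcl5 and Mmp3. A further 5 without a region at the outermost 5′ end, Mdm4, Trp53bp1, Trp53i13, Bcl2l11 and Dram1, had an annotated start inside one.

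**Figure D5:**
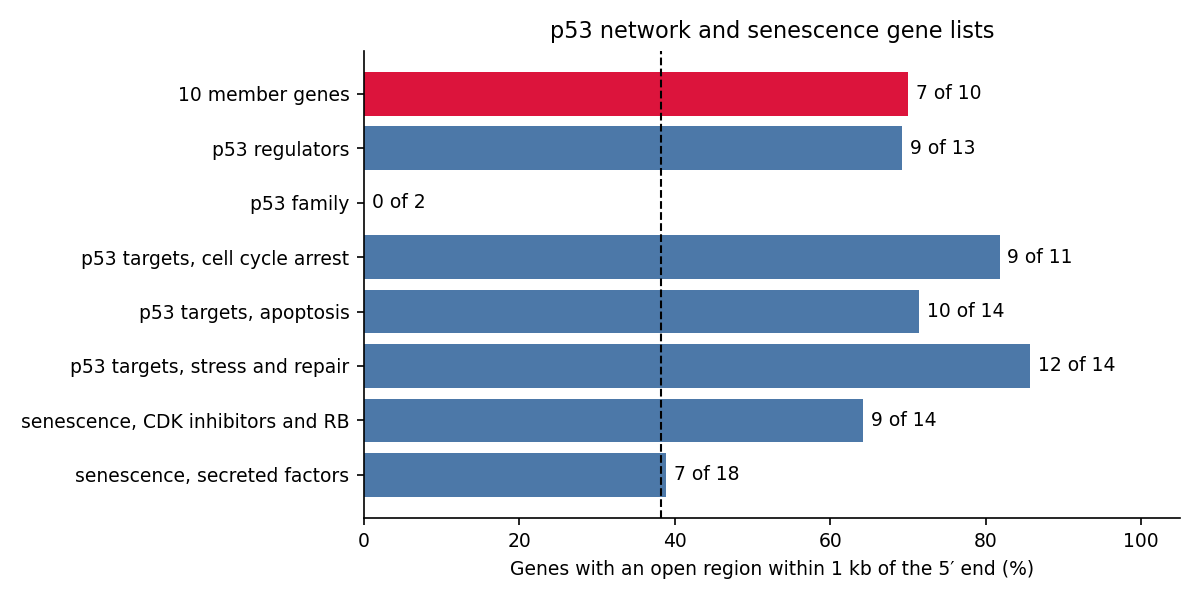
Share of genes (%) with an open region within 1 kb of the outermost 5′ end, for the 10 genes (red) and 7 further lists (blue), with the number of genes beside each bar and the share over all protein-coding genes, 38.3%, as a dashed line. The bar for secreted factors, 7 of 18, ends close to the dashed line, and that for the p53 family is empty at 0 of 2.

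The p53 regulators had a 5′ end region in 9 of 13 cases. The strongest were at the kinases Atm (fold 16.8) and Chek2 (12.8), which signal DNA breaks to p53, and at the ubiquitin ligase Cop1 (11.4). The most nearest regions were those of the ligase Rchy1, with 4, and of the deubiquitinase Usp7, with 3. Among genes with a similar stretch these counts were at percentiles 72.6 and 88.9. Mdm4, the partner of Mdm2, had none at its outermost 5′ end but 2 inside the gene. Neither relative of p53 had a region at the outermost 5′ end. Trp63 marks basal epithelial cells through a short isoform read from an internal promoter. It had 7 regions in the gene and 10 nearest regions, and Trp73 had 6 and 1. Their nearest regions were at percentiles 92.3 and 69.3.

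The p53 targets in cell cycle arrest had a 5′ end region in 9 of 11 cases. The highest folds were those of Cdc25c (15.2), a phosphatase that drives entry into mitosis, Gadd45a (10.7) and the cyclin Ccng2 (9.87). The list was not divided by whether p53 raises or lowers a gene. The kinase gene Plk2 had 15 nearest regions (percentile 98.6 for its stretch) and Gadd45a had 8 (percentile 95.3). The apoptosis list had one at 10 of 14 genes, the strongest at the nuclease Aen (13.0), at Trp53inp1 (12.9) and at Apaf1 (11.8), the scaffold of the apoptosome. The BH3-only genes Bcl2l11 and Bid had 11 and 10 nearest regions, and Perp, a desmosomal protein of stratified epithelia, had 6. For their stretch these were at percentiles 95.3, 98.4 and 96.1. In the stress and repair list, 12 of 14 had one, led by Sesn3 (15.5), a relative of Sesn2 that also had 10 nearest regions, the translesion polymerase Polk (13.8) and the glutathione peroxidase Gpx1 (13.7). All 3 sestrin genes thus had a region at the 5′ end, Sesn1 with a fold of 6.73. The nearest regions of Sesn3 were at percentile 96.5 for its stretch.

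The senescence genes around CDK inhibitors and RB had a 5′ end region in 9 of 14 cases. The chromatin protein gene Hmgb1 had the highest fold (16.4), followed by the INK4 gene Cdkn2d (11.8) and the Polycomb methyltransferase Ezh2 (9.73). Hmgb1 and Ccnd1 had the most nearest regions of this list, 4 each, at percentiles 85.7 and 84.9 for their stretch. Ccnd1 had no region at the 5′ end but 1 inside the gene. Cdkn2c (8.82), Cdkn1b (8.94) and Rb1 (5.84) had a 5′ end region as well, whereas Cdkn1c had none there and 3 nearest regions (percentile 70.2). Of the INK4 genes, Cdkn2b, Cdkn2c and Cdkn2d thus had a region at the outermost 5′ end, while that of Cdkn2a was at the Arf start and not at the start on the side of p16Ink4a. Among the secreted factors named here the highest folds were those of Plaur (9.44), the urokinase receptor, and of Il6 (7.36), an inflammatory cytokine. The annotated start of neither gene lay inside a region. Igfbp3 had no region at its 5′ end but 12 nearest regions, Igfbp7 had 9 and Plaur had 5. For their stretch these were at percentiles 90.9, 85.1 and 99.7.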

How the data were processed

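Bulk ATAC-seq of 4 mSGO samples was deposited as 1 list of regions. Per the study's methods, the authors ran the ENCODE ATAC-seq pipeline on 75 bp paired-end reads and made a consensus file of all organoid samples, which the list was assumed to be although their sizes differ. The submitters' processing notes name HOMER and GRCm39, and the pipeline's version and filters are not given in the sources used here. For each summit the deposited list holds an IDR score, a fold (ratio) of signal over local background, and p-value and q-value columns on a −log10 scale, as made by the authors' peak caller. The p-values were not used. A further column, the summit's offset, was also deposited.

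The 69545 lines were joined into 32011 distinct regions with the values of the strongest summit. The list was read as GRCm38: 38.3% of protein-coding 5′ ends in the RefSeq table of GRCm38.p6 had a region within 1 kb, 3.66% when shifted by 10 kb, and 5.03% with GENCODE ends of GRCm39. Strand came from the RefSeq promoter sequences for 17492 protein-coding genes and otherwise, by name and chromosome, from GENCODE release 39. This departs from the plan, which took all strands by name. Of 21900 protein-coding genes 21440 could be placed. Genes were ranked for regions inside or nearest among the 500 most similar in length or stretch. CpG and motifs were counted in 300-base promoter windows.

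The members and lists were chosen with earlier results of these data known. Named genes are the 10 members and, of each further list, up to 3 with the highest fold at the 5′ end, up to 3 with the most nearest regions, and those with no region where these were 5 or fewer; 1 gene that this rule names is not reported here. Others named (Mdm4, Trp53bp1, Trp53i13, Dram1, Trp63 and Trp73, Sesn1, Cdkn1b, Cdkn1c, Cdkn2c, Rb1, the marker genes and neighbours) were chosen for their place in the pathway or after their values were seen. The placing of regions was tested on simulated data. Python 3.11.15, numpy 2.4.6, pandas 2.3.3 and matplotlib 3.10.9 were used.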

Additional observations from a re-analysis of the deposited data

How the results depend on the processing

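Depth per sample is unknown, the list has no replicate values, and leaving out a sample was not possible. No paired analysis was possible because the list gives values for the samples together only. The number of members with a 5′ end region, 7, was 5 to 8 under 8 alternatives, 2 of them chosen after seeing the data. Within 500 bp it was 5 (background 35.4%), without Bbc3 and Trp53. Among the 16006 regions with the lowest q-values (25.9%), or those with an IDR score of 1000 (24.0%), it was 5, without Bbc3 and Cdkn2a. Counting a start inside a region it was 7 (37.9%), with Cdkn1a in place of Trp53, and within 1 kb of any annotated start it was 8 (42.0%), with Cdkn1a added. The count in the further lists, 56, was 46 to 58 under 3 alternatives. The 4 regions inside members became 1 among the lowest q-values and 8 when every line of the list was counted. The 24 nearest regions became 13 with genes of every type as candidates, and 12 among the lowest q-values. The median fold of the members, 9.26, became 7.86 with the mean over summits, which lowered the median over the strongest regions at protein-coding 5′ ends, each counted 1 time, from 8.33 to 6.49.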
